A study of Mus musculus with 3 samples.

Results

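Dendritic cells grown from mouse bone marrow (BMDCs) and given lipopolysaccharide (LPS) were compared with unstimulated BMDCs across all genes of the array. This comparison uses 2 of the 3 arrays of the study, 1 for each condition, chosen by their sample titles. Both cultures were grown in 10 ng/ml mouse GM-CSF, a myeloid growth factor, and were used on day 10. The LPS culture then received 10 ng/ml LPS of Escherichia coli serotype 055:B5 for 3 h, and the unstimulated culture received no agent, with no matching time recorded for it. The third array, of cells given LPS with 100 µM of the cyclic AMP analogue 8-Br-cAMP, entered only the common scaling, the floor and the choice of probe set. The sources used here do not give strain, sex or age of the mice. Of 18193 genes with a probe set of their own, 12283 were measured, meaning that the signal was above a common floor on at least 1 of the 2 arrays. With 1 array per condition no difference has a replicate check, no test is possible, and the effect of LPS and any other difference between the 2 cultures cannot be told apart.

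LPS is a component of the outer membrane of Gram-negative bacteria and binds Tlr4 together with its partners Ly96 and Cd14. Tlr4 signals through the adaptor Myd88 to NF-kB and the MAP kinases, which switch on inflammatory cytokines, and through the adaptor Ticam1 to Irf3, which switches on interferon beta. Interferon beta then acts back on the cell through its receptor and STAT proteins, which switch on antiviral genes. Dendritic cells that sense LPS stop sampling their surroundings, display costimulatory molecules, leave for the lymph node and activate T cells.

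The scaled signal of a gene is the deposited linear intensity of its brightest probe set after both arrays were brought to a common trimmed mean. Signals under the floor of 32.5 were set to it before taking the log2 difference, LPS minus unstimulated, so a difference from an array at the floor is written as at least its size. Signals under the floor are printed as scaled but have no order among themselves, and a value in brackets after a gene's signals is its log2 difference. With LPS, 815 genes were at least 2-fold higher (6.64% of those measured) and 1597 were at least 2-fold lower (13%), while 9871 lay within 2-fold. The lower genes were more numerous and the higher genes differed by more, with a median of 1.58 among the higher and -1.32 among the lower. At least 4-fold, 270 genes were higher and 153 lower. At least 8-fold, 126 were higher and 15 lower, and at least 16-fold, 52 were higher and 2 lower. The median of all measured genes was -0.21, against -0.51 to -0.077 under 6 other scalings, so the differences below are best read against the median of all genes. Among genes past 2-fold the share that was higher was 33.8%, against 43.6% after quantile normalization, 47.5% after cyclic loess, 15.7% when the hybridisation spikes set the scale and 17.5% with the signals as deposited. With the floor at the 75th percentile this share was 49.5%, from 584 higher and 596 lower genes.

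Different probe sets of 1 gene give a measure of the scatter within these arrays. Over 5376 genes with 2 probe sets, a single probe set's log2 difference carried an error of 0.49, which leaves out any spread between cultures. A second probe set above the floor had the same sign in 393 of 427 higher genes (92.0%) and in 641 of 745 lower ones (86.0%). Where the brightest and the second probe set of a gene fell on different sides of 2-fold or had different signs past it, the second value is given. Of the higher genes 140 were at the floor in the unstimulated culture (17.2%), and of the lower genes 356 were at the floor with LPS (22.3%).

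**Figure D1:**
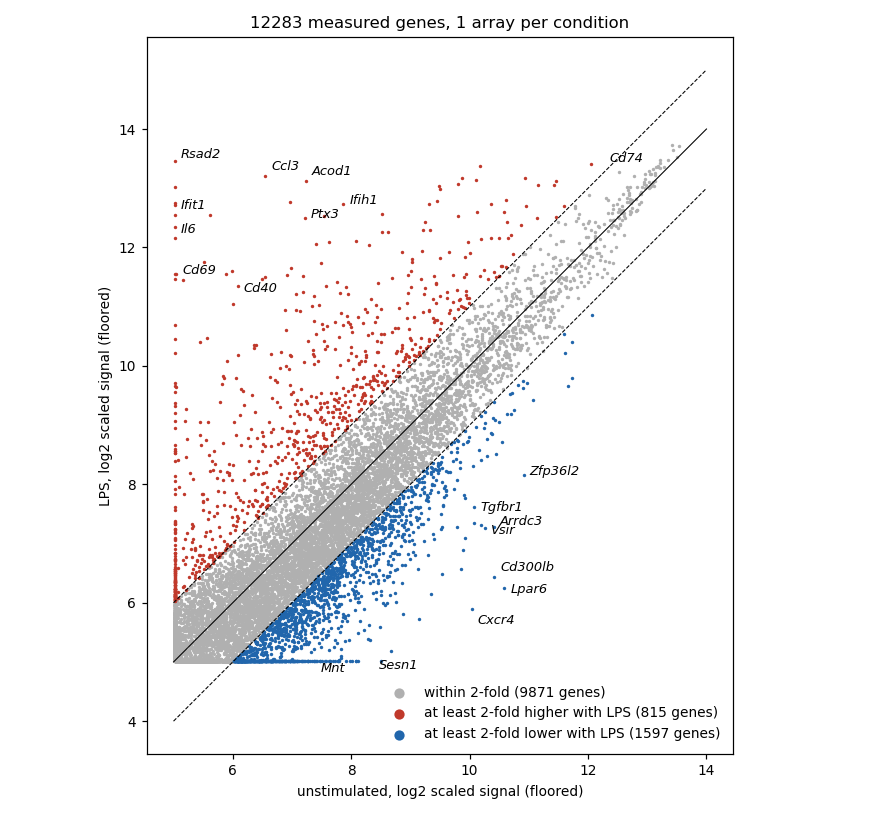
Scaled signals of the 12283 measured genes, unstimulated on the x axis and LPS on the y axis, both as log2 with signals under the floor drawn at it. Each point is a gene, the solid line marks equal signals and the dashed lines 2-fold. The 815 genes drawn in red include antiviral and cytokine genes far above the upper line, and the 1597 drawn in blue lie mostly close below the lower line.

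The highest genes included antiviral genes and cytokine genes. Rsad2, an antiviral enzyme that makes a chain-terminating nucleotide, read 32.2 unstimulated and 11245 with LPS, at least 346-fold higher. Il6, a cytokine of fever and the acute phase, read 31.2 unstimulated and 6004 with LPS, at least 185-fold higher. Both were under the floor without LPS, so these are lower bounds. Among genes above the floor on both arrays, Ccl3, a chemokine that recruits monocytes and lymphocytes, read 93.6 unstimulated and 9432 with LPS, 101-fold higher. Cd69, a lectin that keeps activated leukocytes in tissue, read 33.0 unstimulated and 3004 with LPS, just above the floor in the unstimulated culture, a difference of 6.51. Acod1, which makes the antimicrobial metabolite itaconate, read 151 unstimulated and 8925 with LPS, 59.3-fold higher. Ptx3, a soluble pattern recognition protein, read 149 unstimulated and 5757 with LPS, 38.5-fold higher. Other genes among the 30 highest were the chemokine Cxcl2 (5.80), the prostaglandin synthase Ptgs2 (5.66), the channel-like gene Calhm6 (at least 5.67) and Usp18, which removes the ubiquitin-like protein Isg15 (5.61).

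Promoter sequences are shown of those of the highest genes in which motifs of the interferon and NF-kB arms can be read. The interferon-stimulated response element, GAAANNGAAA on either strand, is bound by interferon regulatory factors, and the NF-kB site by dimers of the NF-kB family. The windows are the 250 bases before the RefSeq start on GRCm38.p6, written 5′ to 3′ on the gene's strand with every match of these motifs that picked the gene in capitals. They belong to Rsad2 at chr12:26456453-26456702 (minus strand), Cxcl10 at chr5:92348890-92349139 (minus strand), Ifit1 at chr19:34640639-34640888 (plus strand), Ifit3 at chr19:34583279-34583528 (plus strand), Il6 at chr5:30012864-30013113 (plus strand), Cxcl1 at chr5:90890995-90891244 (plus strand) and Oasl1 at chr5:114922990-114923239 (plus strand), the first genes in order of difference whose window held a match.
Rsad2: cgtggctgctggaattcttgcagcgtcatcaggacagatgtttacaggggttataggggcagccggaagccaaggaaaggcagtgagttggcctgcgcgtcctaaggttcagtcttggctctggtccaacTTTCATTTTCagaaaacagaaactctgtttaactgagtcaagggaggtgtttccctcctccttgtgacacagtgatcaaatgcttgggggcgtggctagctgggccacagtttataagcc
Ifit1: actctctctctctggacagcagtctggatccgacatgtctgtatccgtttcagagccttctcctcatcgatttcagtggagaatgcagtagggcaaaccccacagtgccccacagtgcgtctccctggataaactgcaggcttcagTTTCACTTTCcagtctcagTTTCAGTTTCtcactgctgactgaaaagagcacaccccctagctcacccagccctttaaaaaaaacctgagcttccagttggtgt
Ifit3: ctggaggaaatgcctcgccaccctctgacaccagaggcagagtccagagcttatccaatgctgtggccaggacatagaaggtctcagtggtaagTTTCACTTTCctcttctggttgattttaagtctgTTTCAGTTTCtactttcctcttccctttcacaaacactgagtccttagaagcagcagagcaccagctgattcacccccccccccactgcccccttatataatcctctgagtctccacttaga
Cxcl10: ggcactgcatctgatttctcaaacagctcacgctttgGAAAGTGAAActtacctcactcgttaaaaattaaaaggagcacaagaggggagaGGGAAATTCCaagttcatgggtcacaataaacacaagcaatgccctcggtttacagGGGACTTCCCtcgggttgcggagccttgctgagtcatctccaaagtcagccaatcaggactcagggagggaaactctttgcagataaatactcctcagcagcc
Il6: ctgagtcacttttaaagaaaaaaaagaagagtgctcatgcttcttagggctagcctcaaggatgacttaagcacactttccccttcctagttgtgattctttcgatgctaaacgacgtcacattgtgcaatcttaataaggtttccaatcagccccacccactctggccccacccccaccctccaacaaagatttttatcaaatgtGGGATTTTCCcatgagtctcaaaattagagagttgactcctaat
Cxcl1: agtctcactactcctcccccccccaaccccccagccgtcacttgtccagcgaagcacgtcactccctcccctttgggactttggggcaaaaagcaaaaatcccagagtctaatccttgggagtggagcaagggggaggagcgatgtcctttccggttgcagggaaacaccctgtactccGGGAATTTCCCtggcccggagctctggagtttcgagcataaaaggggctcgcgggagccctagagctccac
Oasl1: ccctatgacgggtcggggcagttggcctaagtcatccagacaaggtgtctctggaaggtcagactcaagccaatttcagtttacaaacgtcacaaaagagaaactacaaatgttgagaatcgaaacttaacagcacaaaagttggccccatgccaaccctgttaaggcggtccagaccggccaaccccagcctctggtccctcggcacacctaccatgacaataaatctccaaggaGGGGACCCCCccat
In Rsad2 the response element lay 110 bases before the start, and in Ifit1 there were 2 matches, 75 and 94 bases before it. Cxcl10 held a response element 203 bases before the start together with 2 NF-kB sites, 93 and 149 bases before it. In Il6 the NF-kB site lay 34 bases before the start, and the 2 matches in Cxcl1, at 60 and 61 bases, overlap each other. The genes shown were picked for a match. Of the 30 highest genes 22 had a window, here counting also the 50 bases after the start. Of these 22, 8 held the response element, 6 the NF-kB site and 13 at least 1 of these motifs. Tnf and Ccl3 were among those with neither.

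Over all measured genes, these motifs were more frequent in the windows of strongly higher genes. Windows from 250 bases before to 50 after the start were found by symbol for 9925 of 12283 measured genes (80.8%), with 12702 windows in all because some genes have several. The response element was in 14% of 279 windows of genes at least 4-fold higher, 4.14% of 580 windows of genes 2-fold to 4-fold higher, 2.16% of 1713 windows of genes at least 2-fold lower and 3.08% of all windows of measured genes. Among all 32851 windows of the RefSeq table its share was 3.44%. NF-kB sites were in 10.4% of windows of genes at least 4-fold higher and 8.45% of those 2-fold to 4-fold higher. Their share was 4.26% for lower genes and 5.35% for all measured genes, against 4.51% of the whole table. The AP-1 site, TGANTCA, bound by Fos and Jun dimers, was in 15.8% of windows of genes at least 4-fold higher and in 5.63% of all those measured, against 7.81% of the whole table. Windows of strongly higher genes were also poorer in CpG dinucleotides, with a median of 9 per window against 19 for all measured genes and 7 for the whole table, and the TATA box, TATAAA, was in 15.1% of them against 7.80% and 13.6%. The part of this base composition in the motif shares was not tested. Of genes at least 8-fold higher taken alone 76.2% had a window, against 80.8% of all measured genes, and their motif shares are not reported here.

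Read the other way, 54 of 352 genes with the response element alone (15.3%) were at least 2-fold higher. The count was 68 of 616 with the NF-kB site alone (11%) and 527 of 8935 with neither (5.90%). Windows with both motifs belonged to 22 genes, of which 5 were higher (22.7%), with a median of 0.14. These shares were not tested against each other. The E-box, CACGTG, bound by clock and Myc family factors, was more frequent in windows of genes at least 4-fold lower. It was in 16.2% of 173 windows of genes at least 4-fold lower, 11% of 1540 of genes 2-fold to 4-fold lower and 9.68% of all measured. The 173 windows belonged to 125 genes, as some genes have several. Counted by gene the contrast was small: 15.2% of genes with an E-box were at least 2-fold lower, against 13.1% of those without. The higher genes differed little from all measured, with 8.10% for genes 2-fold to 4-fold higher and 8.60% for genes at least 4-fold higher. In the whole table it was in 7.15%. The higher share did not hold in the 20 windows of genes at least 8-fold lower, of which 1 had it (5%). The GC box, GGGCGG, was less frequent in strongly higher genes, at 45.5% in genes at least 4-fold higher and 59.3% in all measured. It was in 62.2% for genes at least 2-fold lower, against 35.7% of the whole table. Mnt, a repressor of the Myc network that itself binds E-boxes with Max, and Rab3il1, an exchange factor for Rab proteins, were the first of the lowest genes with an E-box, at chr11:74830674-74830923 (plus strand) and chr19:10017944-10018193 (plus strand), shown with the E-box in capitals.
Mnt: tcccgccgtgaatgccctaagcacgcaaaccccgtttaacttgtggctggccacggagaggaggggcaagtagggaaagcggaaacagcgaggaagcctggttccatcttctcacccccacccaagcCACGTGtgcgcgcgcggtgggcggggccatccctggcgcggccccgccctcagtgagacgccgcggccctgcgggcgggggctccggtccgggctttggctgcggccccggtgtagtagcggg
Rab3il1: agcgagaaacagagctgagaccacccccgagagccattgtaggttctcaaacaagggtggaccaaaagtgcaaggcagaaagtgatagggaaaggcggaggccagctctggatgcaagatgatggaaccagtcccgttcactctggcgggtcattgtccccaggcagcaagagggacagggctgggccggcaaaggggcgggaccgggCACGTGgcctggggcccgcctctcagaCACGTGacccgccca
A match is a description of the letters and does not show that a factor was bound.

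**Figure D2:**
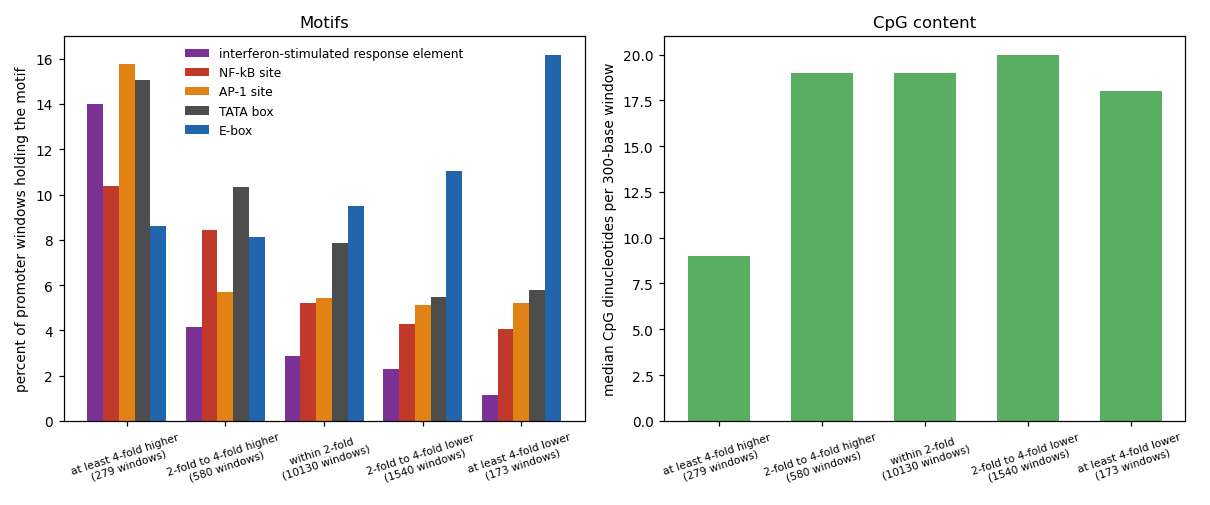
Percent of RefSeq promoter windows that held each of 5 motifs (left) and the median number of CpG dinucleotides per window (right), by the size of the gene's difference, with the number of windows under each group. The response element falls from 14% in genes at least 4-fold higher to 1.16% in genes at least 4-fold lower. The E-box is at 8.60% in genes at least 4-fold higher and 8.10% in genes 2-fold to 4-fold higher. It rises to 16.2% in genes at least 4-fold lower.

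The label of dendritic cells was checked against marker genes. All 12 dendritic cell markers were above the floor on both arrays, with Itgax at 1518 unstimulated and 1347 with LPS and the class II invariant chain Cd74 at 8500.0 unstimulated and 9664 with LPS. Their summed signal was 33190 unstimulated and 40716 with LPS. Markers of macrophages and of neutrophils were above the floor as well, 10 of 10 and 13 of 13 on both arrays. The summed neutrophil signal was 43112 and 45398, with 0 of the 13 markers past 2-fold. B cell markers had a summed signal of 3580 unstimulated and 1873 with LPS, mostly Ighm at 3086 unstimulated and 1495 with LPS. The defining markers Cd3e and Cd3g of T cells, Siglech of plasmacytoid cells, Xcr1 of type 1 dendritic cells and Hba-a1 of red cells were under the floor on both arrays. Other markers of these lists were not, with 6 of 9 plasmacytoid and 8 of 9 type 1 dendritic cell markers above it on each array. The plasmacytoid markers Bst2, which interferon also switches on, and Tcf4 read 321 and 155 unstimulated and 800 and 450 with LPS, and the type 1 factor Batf3 read 168 and 123. Stromal markers had summed signals of 8687 and 7574, and platelet markers 8806 and 9990, with 0 past 2-fold in either list. The part of any of these cells in the differences was not tested. Xist was under the floor and the Y-linked genes Eif2s3y and Kdm5d above it in both cultures. In such bulk samples fewer cells of a type and less RNA per cell cannot be told apart.

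**Figure D3:**
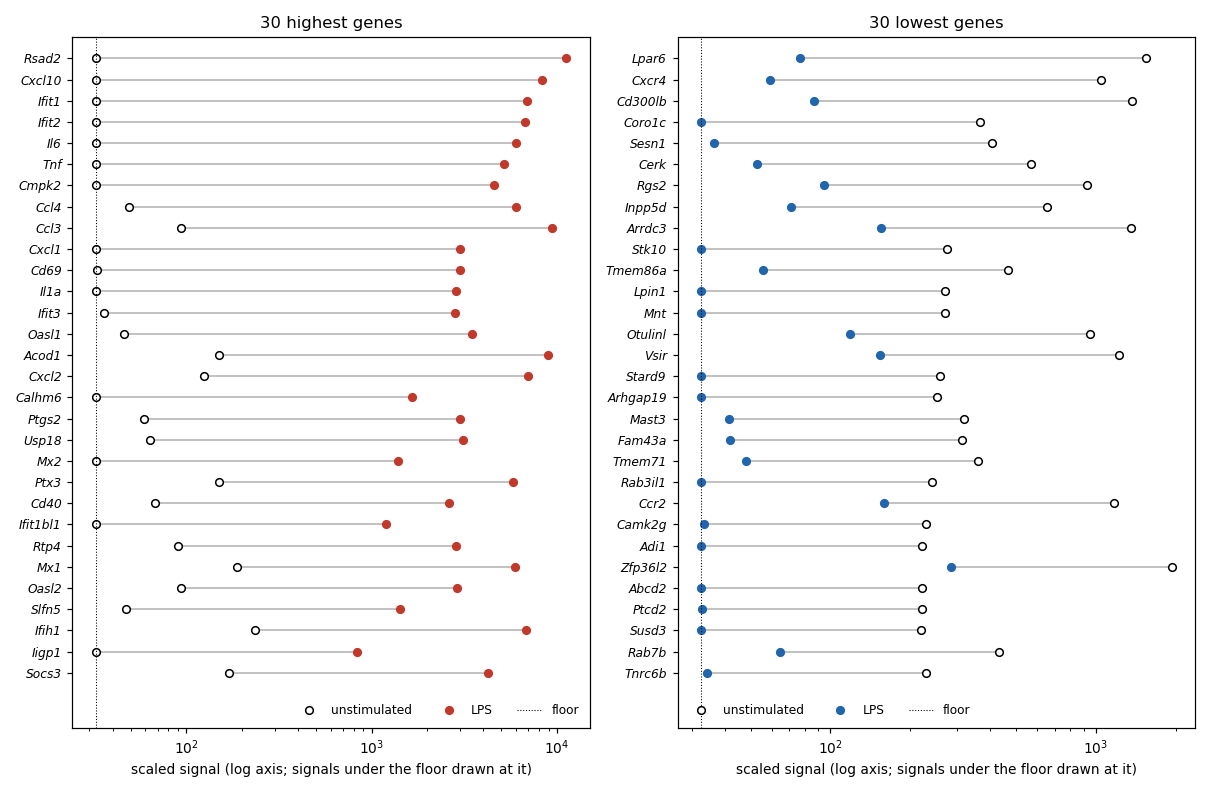
Scaled signals of the 30 highest (left) and 30 lowest (right) genes on both arrays, on a log axis with signals under the floor of 32.5 drawn at it. Open circles are unstimulated, filled circles are LPS, and the line joins the pair. Among the highest genes the LPS signal runs from 838 for Iigp1 to 11245 for Rsad2. Among the lowest the unstimulated signal runs from 219 for Susd3 to 1930.2 for Zfp36l2, which also has the highest LPS signal of that panel, 284.

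Receptors that sense microbial products were higher in part, while the LPS receptor Tlr4 was not. Of 32 measured Toll-like receptor and adaptor genes 9 were at least 2-fold higher and 1 was lower, with a median of 0.44. Tlr2, which senses bacterial lipoproteins, read 1308 unstimulated and 4589.5 with LPS (1.81). Its partner Tlr1 read 90.7 unstimulated and 472 with LPS (2.38), and Cd14 read 4222 unstimulated and 10940.3 with LPS (1.37). Tlr4 read 155 unstimulated and 93.1 with LPS, a difference of -0.73, and -1.47 by its second probe set. Cd180, an inhibitory relative of Tlr4, differed by 1.89, the adaptor Myd88 by 1.98 and Irak3, a brake on Myd88 signalling, by 1.47. Cnpy3, a chaperone that Toll-like receptors need to reach their site, was the lower gene, at 229 unstimulated and 37.5 with LPS (-2.61).

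Cytosolic sensors of bacteria differed both ways, and those of nucleic acid were mostly higher. The Nod-like receptor and inflammasome list had 6 of 21 genes higher (28.6%) and 3 lower (14.3%), against 6.64% and 13% of all genes. Its median was -0.07, with -0.41 to 0.16 under the other scalings. Casp4, the caspase that binds cytosolic LPS, read 125 unstimulated and 1166 with LPS (3.22), and Nod1, a sensor of cell wall peptides, read 61.4 unstimulated and 326 with LPS (2.41). Mefv, which encodes pyrin, differed by 2.32, Casp1 by 1.39 and Nlrp3 by 1.06. The lower members were Nlrx1, a mitochondrial relative (at least 3.09-fold lower), Txnip (-1.20) and the ATP-gated channel P2rx7 (-1.04). Among sensors of RNA and DNA, 12 of 18 were higher (median 2.41). Ifih1, the sensor of long double-stranded RNA, read 234 unstimulated and 6772 with LPS (4.86), and Ddx58, the sensor RIG-I, read 182 unstimulated and 1673 with LPS (3.20). Dhx58, a relative that tunes both, differed by 3.14 and Zbp1, a sensor of Z-form nucleic acid, by 3.03. Mavs, the adaptor that Ifih1 and Ddx58 signal through, went the other way, at 148 unstimulated and 50.9 with LPS (-1.54), and Sting1 stayed within 2-fold at -0.47.

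Genes of the NF-kB family and its inhibitors were higher in part. Of 18 measured genes 9 were higher and 2 lower (median 0.79). Nfkbia, the inhibitor IkB alpha that NF-kB switches on itself, already read 2763 unstimulated and 8479 with LPS (1.62). The related inhibitors Nfkbie and Nfkbib differed by 2.61 and 1.99, and Nfkbiz, a nuclear cofactor needed for Il6, read 146 unstimulated and 2418 with LPS (4.05). Of the subunits, Nfkb2 differed by 2.97 (0.69 by its second probe set), Rel by 1.81, Rela by 1.02 and Relb by 0.41. The kinase gene Ikbkb stayed within 2-fold at 0.55, and Map3k14, the kinase of the noncanonical pathway, differed by -1.06 (-0.94 by its second probe set).

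Genes of TRAF adaptors and ubiquitin editing carry or restrain the signal. Of 31 measured 10 were higher (32.3%, against 6.64% of all genes) and 3 lower (9.68%, against 13%), with a median of 0.56. Tnfaip3, the enzyme A20, read 315 unstimulated and 4219 with LPS (3.74), and its binding partner Tnip1 read 496 unstimulated and 2968 with LPS (2.58). Peli1, a ubiquitin ligase of the Myd88 arm, differed by 3.58, while its relative Peli2 differed by -1.88. Rnf31, a subunit of the linear ubiquitin ligase, differed by 2.25. Tnfaip8l2, a restraint on Toll-like receptor signalling that is present at rest, read 595 unstimulated and 161 with LPS (-1.89). Restraints on the pathway were thus found among both the higher and the lower genes.

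MAP kinases and their phosphatases also split, with 8 of 40 higher (20%, against 6.64% of all genes) and 11 lower (27.5%, against 13%). Their median was -0.08, with -0.42 to 0.13 under the other scalings. Dusp2 read 20.6 unstimulated and 378 with LPS (at least 3.54) and Dusp16, which acts on the JNK kinases, read 223 unstimulated and 1441 with LPS (2.69). Dusp6, which acts on ERK, read 750.5 unstimulated and 201 with LPS (-1.90), and Dusp1, which acts on p38, differed by 0.53. These phosphatases remove activating phosphates, so members of 1 enzyme family differed in both directions. The kinases Mapkapk2 (2.45) and Map3k8 (1.81) and the ERK inhibitor Spred1 (2.72) were higher, and the kinase Mknk2, which phosphorylates the cap-binding factor Eif4e, was lower at 971 unstimulated and 218 with LPS (-2.16). Eif4e itself differed by 1.62.

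The list of suppressors of cytokine signalling and phosphatases had 6 of 27 genes higher (22.2%, against 6.64% of all genes). Its 4 lower genes (14.8%) were near the 13% of all genes, and its median was 0.35. Socs3 read 170.4 unstimulated and 4241 with LPS (4.64) and Socs1 read 21.2 unstimulated and 661 with LPS (at least 4.35), both feedback inhibitors of JAK kinases. The adaptors Dok2 and Dok3, which damp tyrosine kinase signals, differed by -2.37 and -1.07, while their relative Dok1 differed by 1.32. The phosphatase Ptpn22 differed by -1.96. In inositol lipid signalling 5 of 32 were higher and 5 lower (15.6% each, against 6.64% and 13% of all genes). Inpp5d, the phosphatase SHIP1 that removes the product of PI3-kinase, read 655 unstimulated and 70.7 with LPS (-3.21), and the catalytic subunit Pik3cg differed by -1.30 (-0.72 by its second probe set). Pik3ap1, the adaptor BCAP, differed by 1.69 and Pik3r5, a regulatory subunit, by 1.46.

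Transcription factors differed gene by gene, with Irf7, Irf1 and Nfkbiz among the higher ones. Of 16 interferon regulatory factors and STATs 5 were higher and 1 lower (median 0.42). Irf7, the amplifier of interferon genes, read 81.6 unstimulated and 1303 with LPS (4.0) and Irf1 read 463 unstimulated and 3869.7 with LPS (3.06). Stat2, which carries the interferon signal, differed by 2.91 and Stat5a by 2.86, while Irf3, which is activated by phosphorylation, differed by -0.81. Irf2bp2, a partner of the repressor Irf2, read 581 unstimulated and 161 with LPS (-1.85). In the list of AP-1, Egr and other immediate early genes 11 of 31 were higher and 2 lower (median 0.36). Batf2 differed by 2.43, Batf by 1.92, Atf3 by 1.63 and Maff by 1.89. Csrnp1, another early gene, read 102 unstimulated and 705 with LPS (2.79). Not all early genes were higher, with Fos at 353 unstimulated and 190.2 with LPS (-0.89), Egr1 at 146 unstimulated and 76.2 with LPS (-0.93) and Egr2 at 302 unstimulated and 105 with LPS (-1.53). Nr4a3, an orphan nuclear receptor, differed by 4.66 by its brightest probe set and -0.70 by its second, so its direction is not settled.

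Of 49 other myeloid transcription factors 9 were higher (18.4%, against 6.64% of all genes) and 4 lower (8.16%, against 13%), with a median of 0.44. Hivep3, a large zinc finger protein that binds NF-kB sites, read 83.9 unstimulated and 1300.5 with LPS (3.95), and Mxd1, a Myc antagonist, read 193 unstimulated and 1625 with LPS (3.07). Mnt, another Myc antagonist, read 269.9 unstimulated and 16 with LPS (at least 8.29-fold lower), so the 2 antagonists went opposite ways, while Myc differed by 0.06. Cebpa, a factor of granulocyte and monocyte development, read 529.7 unstimulated and 115 with LPS (-2.20), and its relative Cebpb differed by 0.85 (1.07 by its second probe set). Spi1, which encodes PU.1, differed by 0.47 and Irf8 by 0.73. Rxra, a nuclear receptor partner, differed by -2.10 by its brightest probe set but 0.71 by its second.

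**Figure D4:**
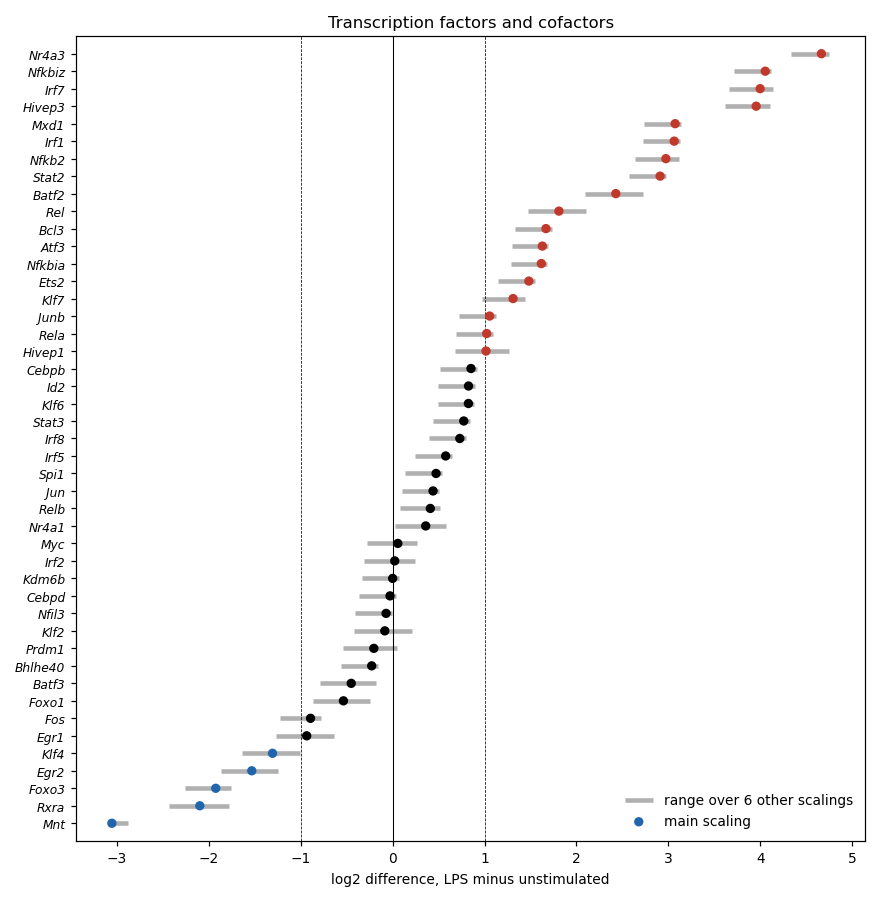
Log2 difference, LPS minus unstimulated, of selected transcription factors and cofactors. Points are the main scaling, red at least 2-fold higher, blue at least 2-fold lower and black within 2-fold, and the grey bars span 6 other scalings. Irf7 (4.0) and Nfkbiz (4.05) lie far to the right, Fos (-0.89) and Egr1 (-0.93) just inside the left dashed line, and Mnt at the far left.

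Cytokine genes were among those with the largest differences. Of 14 measured interleukins and related cytokines outside the Il1 family 7 were higher and 1 lower (median 0.75). Il12b, the subunit shared by IL-12 and IL-23, read 155 unstimulated and 1377 with LPS (3.15), while its partners Il12a and Il23a were under the floor without LPS and read 338 and 164 with it. Il15, a growth factor of natural killer and memory T cells, differed by 2.16, and Il15ra, the chain that presents it, read 9.10 unstimulated and 495 with LPS (at least 3.93). Il16, a chemoattractant for CD4+ cells, was the lower one, at 373 unstimulated and 88.2 with LPS (-2.08), but -0.55 by its second probe set. The Il1 family held both agonists and the antagonist: Il1a read 23.9 unstimulated and 2844 with LPS, Il1b read 1151 unstimulated and 10572 with LPS (3.20) and Il1rn, the receptor antagonist, read 633 unstimulated and 6771 with LPS (3.42). Its receptor genes stayed within 2-fold for Il1r1 (0.27) and Il1rap (0.24), and Il18r1 differed by -1.10.

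Tumour necrosis factor family ligands were higher in 6 of 11 cases and lower in 0 (median 1.26). Tnf itself read 13 unstimulated and 5206 with LPS, Tnfsf9, the ligand 4-1BBL for T cells, read 118 unstimulated and 1962 with LPS (4.06) and Cd70 read 7.08 unstimulated and 267 with LPS. Of 17 receptors 2 were higher and 2 lower (11.8% each, against 6.64% and 13% of all genes). Their median was -0.09, with -0.43 to 0.13 under the other scalings. The higher ones were Cd40 at 67.9 unstimulated and 2613 with LPS (5.27) and Tnfrsf1b at 1612 unstimulated and 4598 with LPS (1.51). The lower ones were the death domain receptor Tnfrsf21 (-1.67, and -0.59 by its second probe set) and the BAFF receptor gene Tnfrsf13c (at least 2.18-fold lower). Growth factors were divided, with the activin subunit Inhba at 166 unstimulated and 2313 with LPS (3.80), the vasoconstrictor Edn1 at 1.59 and the platelet-derived factor Pdgfb at -2.10 (-0.80 by its second probe set). Csf2, which encodes the GM-CSF that these cells were grown in, read 4.05 unstimulated and 81.6 with LPS.

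Chemokines were higher in 16 of 31 cases and lower in 1 (median 1.21). The neutrophil chemokines Cxcl1, Cxcl2 and Cxcl3 read 2997, 6967 and 3411 with LPS, from 11.8, 125 and 179.5. Chemokines for activated T cells, Cxcl9, Cxcl10 and Cxcl11, were under the floor without LPS and read 805, 8269 and 753 with it, Cxcl11 with 0.77 by its second probe set. The monocyte chemokines Ccl2 and Ccl7 differed by 4.0 and 3.53. Other chemokines stayed near their unstimulated level, as Ccl6 read 7163 unstimulated and 7256 with LPS and Pf4 read 6085 unstimulated and 6623 with LPS.

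Chemoattractant receptors differed both ways. Of 23 measured 6 were lower (26.1%, against 13% of all genes) and 3 higher (13%, against 6.64%), nearly the same ratio as over all genes (median 0.00, with -0.41 to 0.05 under the other scalings). Cxcr4, which holds cells in the marrow, read 1048 unstimulated and 59.4 with LPS (-4.14), Ccr2, the receptor of Ccl2, read 1172 unstimulated and 159 with LPS (-2.88) and Cx3cr1 read 361 unstimulated and 73.6 with LPS (-2.29). Gpr183, which guides dendritic cells by oxysterols, differed by -1.14 (-0.62 by its second probe set), while Ch25h, which makes the precursor of its ligand, read 51.6 unstimulated and 377 with LPS (2.87). Higher ones were Ccrl2, a receptor that binds chemerin without signalling, at 218 unstimulated and 2735 with LPS (3.65), the formyl peptide receptor Fpr2 (1.95) and the complement receptor C5ar1 (1.55). Ccr7, the lymph node homing receptor, read 1122 unstimulated and 1457 with LPS, a difference of 0.38 within 2-fold.

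The 4 lists with the highest medians were antiviral ones. Of 34 measured antiviral effectors 26 were higher and 0 lower (median 2.74). Mx1, a GTPase against influenza virus, read 187 unstimulated and 5901 with LPS (4.98), and Eif2ak2, the kinase PKR, read 111 unstimulated and 634 with LPS (2.51). Members that stayed within 2-fold included Ifitm1 and Ifitm2, which block virus entry, at 0.24 and 0.38 with signals already at 5158 and 3958 unstimulated. Guanylate-binding proteins and immunity GTPases, which attack the vacuoles of intracellular microbes, had 9 of 11 higher and 0 lower (median 3.64). Gbp2 read 394 unstimulated and 4924 with LPS (3.64) and Ifi47 read 199 unstimulated and 4388 with LPS (4.47). The Schlafen and Ifi200 genes had 12 of 14 higher and 0 lower, and their median was 3.40. Slfn5 read 47.3 unstimulated and 1421 with LPS (4.91) and Mndal read 722 unstimulated and 8144 with LPS (3.50). Poly(ADP-ribose) polymerases linked to interferon followed with 5 of 8 higher, led by Parp14 at 269 unstimulated and 4433 with LPS (4.04). Probe sets of such near-identical relatives can bind more than 1 of them, so single members of these families are less certain than the groups.

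Of the interferon genes and their receptors, chains of both receptors differed. Ifnb1 was close above the floor unstimulated and read 337 with LPS (2.75). Ifnar1, a chain of its receptor, read 333 unstimulated and 875 with LPS (1.39) and the kinase Jak2 read 693 unstimulated and 2716 with LPS (1.97). Ifngr1, the ligand-binding chain of the interferon gamma receptor, read 1073 unstimulated and 196 with LPS (-2.46), so these 2 chains, of receptors for different interferon types, differed in opposite directions. The other chains Ifnar2 and Ifngr2 differed by 0.82 and -0.68, but the second probe set of Ifngr2 read 1.08, so its direction is not settled.

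**Figure D5:**
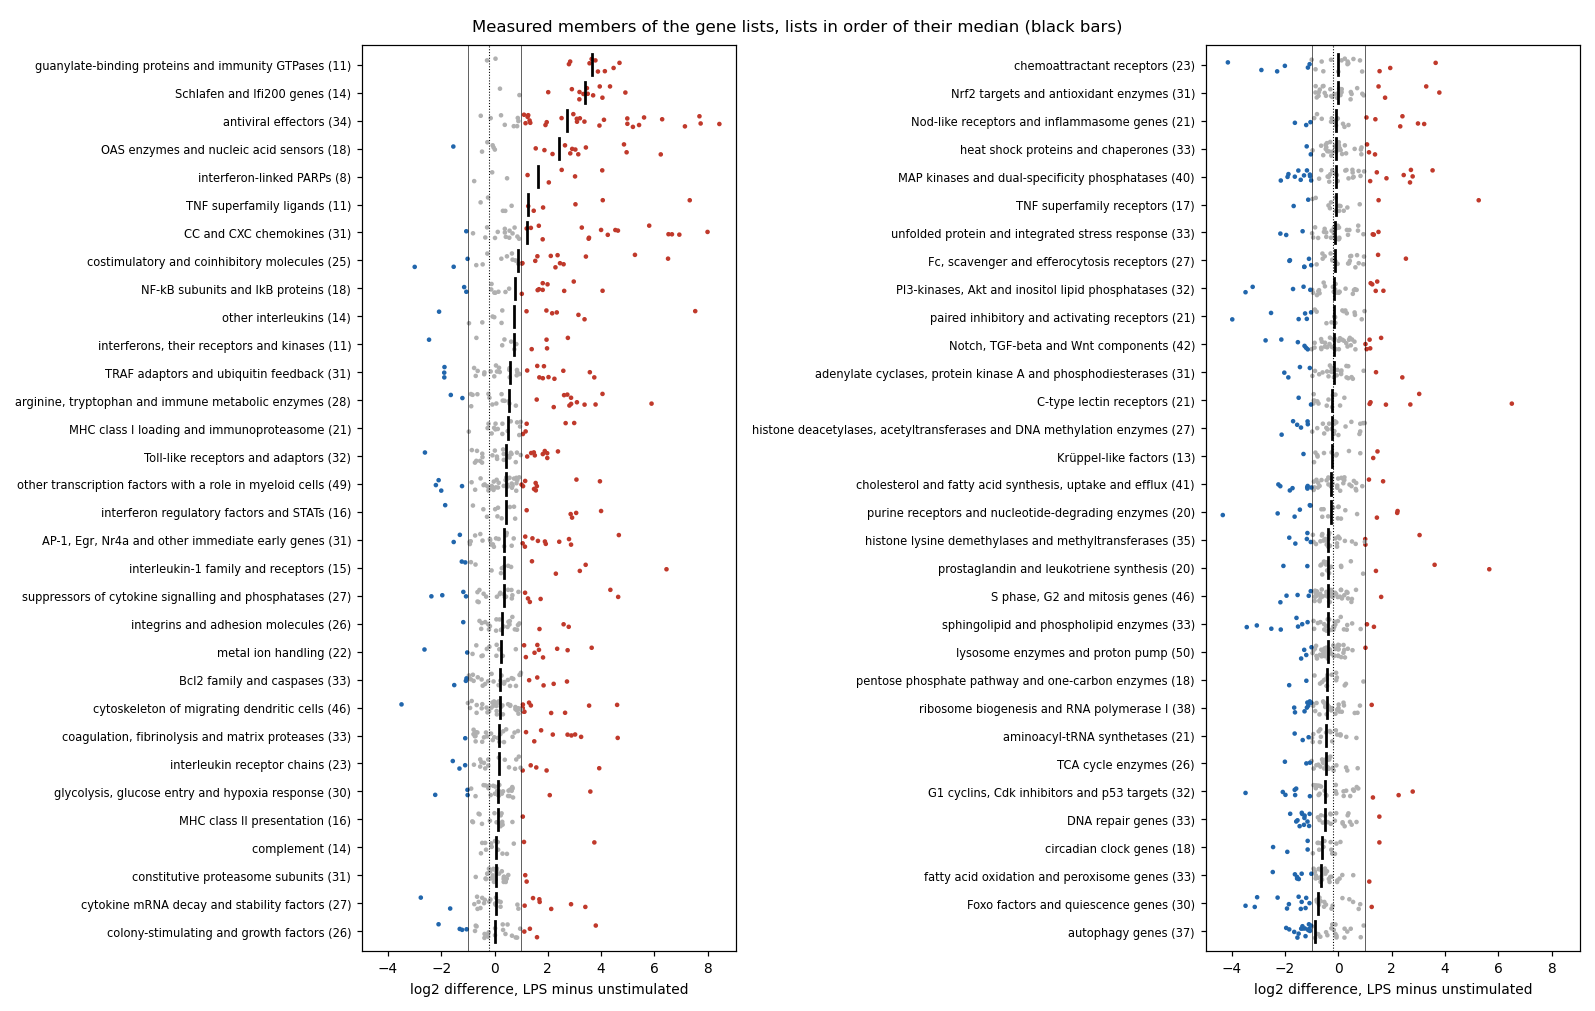
Log2 difference of every measured member of 64 gene lists, LPS minus unstimulated, with lists in order of their median (black bar) and the number of measured members in brackets. Red points are at least 2-fold higher, blue at least 2-fold lower and grey within 2-fold, and the dotted line is the median of all measured genes. Guanylate-binding proteins lie at the top (median 3.64) and autophagy genes at the bottom (median -0.87).

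Surface molecules that act on T cells were higher in 12 of 25 cases and lower in 3 (median 0.89). The costimulatory ligand Cd86 read 496 unstimulated and 2415 with LPS (2.29) and its relative Cd80 read 69.7 unstimulated and 213 with LPS (1.61). Cd200, an inhibitory ligand, read 112 unstimulated and 1209 with LPS (3.43), while its receptor Cd200r1 was lower at -1.53 (-0.95 by its second probe set). Vsir, the inhibitory molecule VISTA, read 1225 unstimulated and 154 with LPS (-2.99), the lowest of the list. The adhesion molecules Icam1, which binds the T cell integrin, and Vcam1 differed by 2.59 and 2.78, but of 26 integrins and adhesion molecules only these and Itgav (1.69) were at least 2-fold higher.

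Receptors for uptake and inhibition differed both ways. Among lectins, Clec4e, a sensor of mycobacterial glycolipid, read 1102 unstimulated and 9031 with LPS (3.03), the endocytic receptor Ly75 differed by 1.79 and Olr1, the receptor of oxidised lipoprotein, by 2.70. The beta-glucan receptor Clec7a and the mannose receptor Mrc1 differed by -0.92 and -0.92. Of 27 Fc, scavenger and efferocytosis receptors 2 were higher (7.41%, near the 6.64% of all genes) and 6 lower (22.2%, against 13%). Marco read 5.68 unstimulated and 189 with LPS, and Stab1 read 477 unstimulated and 134 with LPS (-1.83). Paired receptors had 0 higher and 6 lower of 21 (28.6% lower, against 13% of all genes). Cd300lb and Cd300a, an activating and an inhibitory receptor from neighbouring genes, read 1366 and 405 unstimulated and 86.8 and 70.5 with LPS.

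Antigen presentation genes were higher in part for class I and nearly all within 2-fold for class II. In class I loading and the immunoproteasome 5 of 21 genes were higher and 0 lower (median 0.50). Nlrc5, the class I transactivator, read 124 unstimulated and 983 with LPS (2.99) and Psmb9 differed by 1.21. The class I heavy chain gene H2-K1 read 6165 unstimulated and 6312 with LPS. Of 16 class II genes 1 was higher and 0 were lower (median 0.13, with -0.20 to 0.20 under the other scalings), and H2-Ab1 read 6184 unstimulated and 7634 with LPS. Constitutive proteasome subunits had 2 of 31 higher (6.45%, near the 6.64% of all genes).

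Of 46 cytoskeletal genes of migrating dendritic cells, 11 were higher and 1 was lower (median 0.21, with -0.12 to 0.28 under the other scalings). Fscn1, the actin bundler of mature dendritic cell protrusions, read 2248 unstimulated and 5785 with LPS (1.36), and Marcksl1, a membrane-binding regulator of actin, read 719 unstimulated and 8406 with LPS (3.55). Coro1c, an actin-binding coronin, read 365 unstimulated and 19.4 with LPS (at least 11.2-fold lower).

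Secreted proteins outside the cytokines included acute phase, clotting and matrix genes. The acute phase protein Saa3 read 896 unstimulated and 8637 with LPS (3.27). Hamp, the hormone hepcidin that blocks iron export, read 32.6 unstimulated and 408 with LPS (3.64), while Slc40a1, the iron exporter that hepcidin acts on, read 201 unstimulated and 21.4 with LPS (at least 6.18-fold lower). In metal ion handling 9 of 22 genes were higher and 2 lower, including the metallothionein Mt2 at 585 unstimulated and 3913 with LPS (2.74) and the zinc importer Slc39a14 (1.82). Coagulation, fibrinolysis and matrix genes had 9 of 33 higher and 1 lower. Tissue factor F3, which starts clotting, read 48.7 unstimulated and 359.5 with LPS (2.88), the plasminogen activator Plat read 65.0 unstimulated and 528 with LPS (3.02) and Serpinb2, an inhibitor of plasminogen activators, read 121 unstimulated and 2969.8 with LPS (4.62). The collagenase Mmp13 read 1566 unstimulated and 7124 with LPS (2.19), and the complement factor Cfb read 66.5 unstimulated and 891 with LPS (3.74).

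Metabolic enzymes with immune roles had 12 of 28 higher and 2 lower (median 0.54). Nos2, the inducible nitric oxide synthase, read 3.89 unstimulated and 228 with LPS, and Slc7a2, an arginine importer, read 896 unstimulated and 5948 with LPS (2.73). Gch1, the first enzyme of tetrahydrobiopterin, the cofactor of Nos2, read 184 unstimulated and 1571 with LPS (3.09), while the next enzymes of that path, Pts and Spr, differed by -1.64 and -1.20. Hdc, which makes histamine, read 28.9 unstimulated and 539 with LPS, and Aldh1a2, which makes retinoic acid, read 43.9 unstimulated and 456 with LPS (3.38). In prostaglandin synthesis Ptgs2 read 59.1 unstimulated and 2992 with LPS, Ptges, which makes prostaglandin E2 from its product, read 43.6 unstimulated and 533 with LPS (3.61) and the phospholipase Pla2g4a differed by 1.41, whereas the thromboxane synthase Tbxas1 differed by -1.16.

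Glucose and mitochondrial genes differed less. In glycolysis and glucose entry 2 of 30 were higher (6.67%, against 6.64% of all genes) and 3 lower (10%, against 13%). The higher ones were Slc2a6 at 55.4 unstimulated and 669 with LPS (3.59) and the phosphofructokinase Pfkp at 605 unstimulated and 2544 with LPS (2.07). The lower ones were Ankrd37 (-2.22), a target of hypoxia-inducible factor, and the enzymes Pfkm (-1.01) and Pfkfb4 (-1.01) of phosphofructokinase activity, and Ldha read 4439.5 unstimulated and 5539 with LPS. The tricarboxylic acid cycle list, which also holds cytosolic relatives of its enzymes, had 3 of 26 lower (11.5%, near the 13% of all genes) and 0 higher (median -0.47). The lower ones were the cytosolic isocitrate dehydrogenase Idh1, which is not an enzyme of the cycle itself, at 3233 unstimulated and 807 with LPS (-2.0), Fh1 (-1.20) and Aco1 (-1.06). Mitochondrial ribosomal proteins had 14 of 76 lower (18.4%, against 13% of all genes) and 0 higher (median -0.57). Of 44 cytosolic ribosomal proteins 0 were lower (median 0.00, with -0.33 to 0.07 under the other scalings). Complex I subunits had 0 of 33 lower (median -0.37). Fatty acid oxidation and peroxisome genes had 7 of 33 lower (21.2%, against 13% of all genes) and 1 higher (3.03%, against 6.64%), with a median of -0.63. Lower ones included Acadm, an acyl-CoA dehydrogenase, at 646 unstimulated and 231 with LPS (-1.48) and Acads (at least 5.49-fold lower).

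Lipid genes outside oxidation were more often lower than higher past 2-fold, as were all measured genes. Cerk, which phosphorylates ceramide, read 569 unstimulated and 52.7 with LPS (-3.43), Dgkz, which removes diacylglycerol, read 886 unstimulated and 156 with LPS (-2.51) and Lpin1, which makes it, read 270.5 unstimulated and 27.5 with LPS (at least 8.31-fold lower). Of 33 sphingolipid and phospholipid enzymes 8 were lower (24.2%, against 13% of all genes) and 2 higher (6.06%, against 6.64%). The sterol and fatty acid list had 8 of 41 lower (19.5%) and 2 higher (4.88%). Its median of -0.27 was near the -0.21 of all genes. The desaturases Fads1 and Scd2 differed by -2.25 and -1.82, while Idi1 of the same list differed by 1.68. Lpar6, a lysophosphatidic acid receptor and the gene with the lowest difference, read 1539.8 unstimulated and 76.5 with LPS, 20.1-fold lower. Among receptors and enzymes of extracellular nucleotides P2ry14 read 255 unstimulated and 1190.3 with LPS (2.22) and Nt5e, which makes adenosine, read 481 unstimulated and 99.5 with LPS (-2.27).

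The lists with the lowest medians were autophagy genes and Foxo-linked genes of resting cells, which are not separate groups, as both hold Gabarapl1. Autophagy recycles cell contents under starvation, and Foxo factors hold cells in quiescence when growth signals are weak. Of 37 autophagy genes 17 were at least 2-fold lower (45.9%, against 13% of all genes) and 0 higher, with a median of -0.87. Ulk1, the kinase that starts autophagy, read 277 unstimulated and 71.5 with LPS (-1.95), the lipid kinase Pik3c3 read 129 unstimulated and 41.2 with LPS (-1.65) and Gabarapl1 read 1309 unstimulated and 467 with LPS (-1.49). The cargo receptor Sqstm1 stood apart at 1728 unstimulated and 3344 with LPS (0.95). The number of lower autophagy genes was 9 to 21 under the other scalings, and their median relative to all genes was -0.66 to -0.57 there. It was 7 with the floor at the 75th percentile and 8 with a pseudocount in its place.

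Of 30 Foxo-linked genes 12 were lower (40%, against 13% of all genes) and 1 was higher (3.33%, against 6.64%), with a median of -0.74. Foxo3 read 501 unstimulated and 132 with LPS (-1.92), Sesn1, a stress protein that restrains mTORC1, read 406 unstimulated and 36.4 with LPS (-3.48) and Tsc22d3, a glucocorticoid-induced repressor, read 743 unstimulated and 90.1 with LPS (-3.04), but 0.23 over its probe sets with a plain _at ending. Arrdc3, an arrestin-like adaptor, read 1355 unstimulated and 154 with LPS (-3.13), and its relative Txnip, which blocks glucose uptake, read 4281 unstimulated and 1859 with LPS (-1.20). Cell cycle genes that go with rest or growth were divided, with cyclin Ccnd2 at 247 unstimulated and 1711 with LPS (2.79), the inhibitor Cdkn1a at 806 unstimulated and 3868 with LPS (2.26) and Rbl2, a pocket protein of resting cells, at -1.58. Of 46 S phase and mitosis genes 1 was higher (2.17%) and 5 lower (10.9%), against 6.64% and 13% of all genes.

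Other lists were lower in part. DNA repair genes had 12 of 33 lower (36.4%, against 13% of all genes) and 1 higher (3.03%, against 6.64%), with a median of -0.50. Lower ones included Parp1 at 557 unstimulated and 193 with LPS (-1.53) and Rad50 (-1.58). Zinc finger genes with Zfp symbols had 41 of 239 lower and 5 higher (median -0.43), a lower share of 17.2% near the 13% of all genes. Within that family the mRNA decay factors split, Zfp36 at 594 unstimulated and 1920.2 with LPS (1.69) and its relative Zfp36l2 at 1930.2 unstimulated and 284 with LPS (-2.76), with Zfp36l1 at -1.66. These proteins destabilise cytokine transcripts through AU-rich elements. The RNase Zc3h12a, which cuts Il6 mRNA, read 72.3 unstimulated and 767 with LPS (3.41), and Arid5a, which protects it, read 57.0 unstimulated and 416 with LPS (2.87). In TGF-beta signalling the receptor chains Tgfbr1 and Tgfbr2 read 1078 and 454 unstimulated and 163 and 196 with LPS.

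Genes of chromatin and stress responses differed in few members. Setdb2, a histone methyltransferase gene, read 69.7 unstimulated and 576 with LPS (3.05), and Kdm6b, a demethylase of histone H3, differed by 0.00. Hdac5 read 280.1 unstimulated and 64.2 with LPS (-2.12). The list of deacetylases and DNA methylation enzymes had 6 of 27 lower (22.2%, against 13% of all genes) and 0 higher. In the unfolded protein response the chaperone Hspa5 read 1872 unstimulated and 5324 with LPS (1.51), while the sensors Ern1 and Eif2ak3 differed by -1.95 and -2.17, Ern1 with -0.29 by its second probe set. Antioxidant genes had 4 of 31 higher (12.9%, against 6.64% of all genes) and 0 lower. The higher ones were led by the cystine importer Slc7a11 at 141 unstimulated and 1949 with LPS (3.79) and Sod2 at 939 unstimulated and 9236 with LPS (3.30). Among genes of cell survival and death, Cflar, which blocks caspase 8, read 277 unstimulated and 1821 with LPS (2.72). Mlkl, the executor of necroptosis, read 61.1 unstimulated and 284 with LPS (2.22).

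Some of the higher genes lie side by side in the genome. Placing 12260 measured genes in RefSeq order on GRCm38.p6, there were 22 runs of 3 or more neighbouring measured genes that were all at least 2-fold higher, 71 genes in all, and 39 runs of lower genes with 131 genes. The longest was a run of 7 on chromosome 1, Aim2, Ifi213, Ifi209, Ifi207, Ifi204, Mndal and Ifi203, with differences of 1.87 to 4.05. Others held members of 1 family, such as Cxcl3, Cxcl1 and Cxcl2 on chromosome 5, Ccl2, Ccl7 and Ccl12 on chromosome 11 and Slfn5, Slfn9 and Slfn8 on the same chromosome. Further runs joined genes of different families, such as Timeless, Stat2 and Il23a on chromosome 10 (1.33, 2.91 and at least 2.34) and Dnajb6, Il6 and Garem2 on chromosome 5, where Dnajb6 differed by 1.08 (0.93 by its second probe set). Among the lower runs were Cd300a, Cd300lb and Cd300ld on chromosome 11 and Cep57l1, Sesn1 and Foxo3 on chromosome 10, where Cep57l1 differed by at least 2.26-fold lower (-0.75 by its second probe set). With median scaling there were 23 higher and 27 lower runs. Runs of lower genes have more genes to draw on, 13% of those measured against 6.64% higher. How many runs a random gene order would give was not tested.

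The host transcript of a microRNA was looked up after the gene values had been seen. Mir155hg, the precursor of miR-155, which NF-kB switches on in myeloid cells and which targets Inpp5d and Socs1, read 6.08 unstimulated and 641 with LPS, at least 19.7-fold higher. The array does not measure the mature miRNA. Its main strand from RefSeq, at chr16:84714143-84714165 on the plus strand of GRCm38.p6, is shown because its seed, bases 2 to 8 in capitals, is what pairs with targets.
mmu-miR-155-5p: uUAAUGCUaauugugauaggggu
Of its textbook targets, Inpp5d differed by -3.21 and Socs1 by at least 4.35, so they went opposite ways on these arrays.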

How the data were processed

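Total RNA of BMDCs was labelled as biotinylated cRNA and hybridised to Affymetrix whole-genome mouse arrays, 1 per condition, per the labels' protocols. The deposited table gives probe set intensity on a linear scale, which the authors computed with MAS5, per the submitters' processing notes. Of that software, the sources used here give no version, target or settings, and no detection calls were used. Of 45101 probe sets 64 were controls, 34945 had 1 gene in the platform annotation, 932 had several and 9160 were not listed.

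Each array was multiplied by a factor (0.763 unstimulated, 0.929 LPS, 1.63 LPS+8-Br-cAMP) that brought its mean, trimmed by 2% at each end, to the average of the 3. These means were 135, 111 and 63.2 before scaling. The floor, 32.5 (log2 5.02), was the highest array median after scaling, and 22518 unstimulated and 21932 LPS probe sets of 45037 were above it. A gene was represented by its brightest probe set over the 3 arrays and called higher or lower at 2-fold. There was no test and no interval, because 2 arrays allow none. The steps were tested on simulated data.

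Members, 64 gene lists, 27 symbol families, 16 marker lists and motifs were chosen with earlier results of these data known. Genes were named by a rule: the 30 highest and 30 lowest whose probe sets agreed, up to 8 members past 2-fold and 4 within 2-fold of each list, members of neighbouring runs, cell type markers, and always Tnf, Il6, Il12b, Il10, Ifnb1, Nos2, Acod1, Tlr4, Gapdh, Actb, Itgax, Cd74, Irf1, Irf7, Nfkbia, Ptgs2 and Xist. Gapdh is not analysed here, and a few other results are not reported here. Cd200r1, Dok3, Egr1, Fos, Il1r1, Irf3, Map3k14, Mavs, Mir155hg, Myc, P2rx7, Pts, Rela, Spi1 and Spr fall outside the rule and were chosen after their values were seen. Promoters and miRNAs are from RefSeq, GRCm38.p6, matched by symbol. The letters of the NF-kB site are not spelled out here, both strands were searched, and every window a gene has was used. Python 3.11.15, pandas 2.3.3 and numpy 2.4.6 were used.

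Alternatives were quantile normalization of 3 and of 2 arrays, median scaling, cyclic loess, spike scaling, signals as deposited, a pseudocount, a floor at the 25th or the 75th percentile, other choices of probe set, thresholds of 1.5-fold and 3-fold, and promoter windows of 250 bases.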

Additional observations from a re-analysis of the deposited data

Results flagged for a closer look

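Some probe sets outside the gene table were higher with LPS. Of 9160 probe sets for which the annotation lists no gene, 3340 were above the floor on at least 1 array, 236 of them at least 2-fold higher and 231 lower. Of 932 probe sets with several genes 618 were measured, 46 higher and 49 lower. The 3 largest differences among them were 4.34 for a probe set that read 168 unstimulated and 3387 with LPS, 4.34 for one that read 143 and 2889, and 3.71 for one that read 119 and 1559. The annotation used here gives these probe sets no single gene, so they entered none of the counts above.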

How the results depend on the processing

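No paired analysis was possible because each condition has 1 array, and for the same reason no replicate could be left out. Against 815 higher and 1597 lower genes and a median of -0.21, spike scaling gave 526 higher, 2824 lower and a median of -0.51. The signals as deposited gave 2618 lower with a median of -0.47, and cyclic loess gave a median of -0.077 with 1002 higher and 1107 lower. A floor at the 25th percentile gave 1839 higher and 2640 lower among 16154 measured genes. One at the 75th percentile gave 584 higher and 596 lower among 7147, so the lower genes were hardly more numerous there. A pseudocount in place of the floor gave 733 higher and 1026 lower. The 1.5-fold threshold gave 1710 higher and 3516 lower, and the 3-fold threshold 406 and 425. Quantile normalization, median scaling and the other choices of probe set kept both counts within 1.5 times. Of 244 genes named by value, the direction and side of 2-fold held in 2774 comparisons with an alternative, 85 fell inside 2-fold, 21 passed it and 1 reversed: Tsc22d3 read 0.23 with only probe sets ending in _at. The cause of these shifts was not tested. Of 91 gene lists and families, 86 kept counts within 1.5 times under median scaling, 58 under spike scaling and 58 with the higher floor. With upstream bases alone the response element was in 11.5% and the NF-kB site in 9.32% of windows of genes at least 4-fold higher. Signals near the floor limit what can be seen of genes that are low on both arrays.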
